A study of Mus musculus with 2 samples.

Results

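Gdf15, the activin beta subunits Inhba, Inhbb, Inhbc and Inhbe, the follistatin genes Fst, Fstl1 and Fstl3, and the activin type II receptors Acvr2a and Acvr2b were followed in the liver of a Drp1 knockout mouse and a wild type mouse. The 10 genes were picked by name, as the non-control probes whose gene name in the array files was one of these symbols. They had 11 of the 39429 probes, 1 for each gene and a second for Acvr2a. The groups were the Drp1 knockout and the wild type. Drp1, encoded by Dnm1l, is a GTPase of the dynamin family that cuts mitochondria into smaller ones. Both mice were male C57BL/6J and were fed a diet rich in lard (24% fat, 45% of kcal) for 24 weeks, starting when they were 4 weeks old. The series title places the disruption in the liver. The promoter or Cre line that drove it, the mice's age beyond this and whether these 2 livers were taken fasted or refed are not given in the sources used here. Each group was 1 array of total liver RNA, so the differences have no replicate check and carry no p-value.

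The activins are secreted dimers of beta subunits and belong to the TGF-beta superfamily. Dimers of the Inhba or Inhbb product bind a type II receptor, Acvr2a or Acvr2b, which recruits a type I receptor that phosphorylates Smad2 and Smad3. Inhbc and Inhbe are expressed mainly in the liver. Follistatin (Fst) and follistatin-like 3 (Fstl3) bind activins and keep them from their receptors, while Fstl1 shares a follistatin domain but is known mainly as a glycoprotein of mesenchymal cells. Gdf15 is a distant member of the superfamily that cells release under stress. It acts on the receptor Gfral with its partner Ret in the hindbrain, where it lowers food intake.

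A level is given as a multiple of the 75th percentile of all gene spots on its own array, and a difference as log2, knockout minus wild type. That percentile was 722 intensity units on the knockout array and 461 on the wild type array, 1.57 times higher in the knockout, so the scaling lowers every knockout level by this factor relative to the raw signals. Both arrays measured 15385 genes, with probes well above background at 57.1% on the knockout and 50.5% on the wild type array. Repeated spots of a probe had a pooled SD of 0.08 log2 on the knockout and 0.11 on the wild type array. This gives a difference between the arrays a spot error of 0.14 log2. This error leaves out labelling, hybridisation and the spread between animals. Hepatocyte genes were bright on both arrays, with albumin (Alb) at 604 times the 75th percentile in the knockout and 865 times in the wild type. The single Dnm1l probe differed by -0.21, and since the deleted part of the gene is not given in the sources used here, it does not check the knockout label.

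All 11 probes are oligonucleotides of 60 bases on the array, and each member probe was spotted once. The last 30 bases are given for the probes of 3 members that stood higher in the knockout and of Inhbe, which did not differ by 1.5-fold, as part of the sequence each value was read from. Capitals mark AATAAA, the letters of the common polyadenylation signal.
Gdf15: actctgctAATAAAggtgagcttggtttct
Fst: ggcaaaacgaaacacaacaaAATAAAtaat
Fstl1: tgtgcttctgtattccatttaactgggttt
Inhbe: gtgacatacattttatattttcttAATAAA
These letters occurred in 4 of the 11 member probes, Gdf15, Inhbb, Inhbe and Fst, and in 12.6% of all 39429 probes. Probes with and without them were found both among the genes that stood higher and among those that stood lower in the knockout.

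Gdf15 gave 10535 ± 1054 intensity units on the knockout array and 2852 ± 285 on the wild type array, where the error is that of the scanner software's model for 1 spot. Scaled, this was 14.6 times the 75th percentile in the knockout and 6.19 times in the wild type, a 2.36-fold higher level (log2 difference 1.24). Only 1.73% of the 15385 measured genes had a higher difference. The probe lies on chromosome 8 at 73153293 to 73153352 on the minus strand (mm9), at position 1024 of the transcript. Of 9 genes measured within 100 kb of it by probe position, 1 exceeded 1.5-fold upward, the AP-1 gene Jund (1.72-fold higher), and 1 downward, Fkbp8 (1.66-fold lower). Over all measured genes, 8.42% were at least 1.5-fold higher and 13.4% lower. Lrrc25, the nearest on the left, differed by -0.18 and Pgpep1, the nearest on the right, by -0.09.

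**Figure D1:**
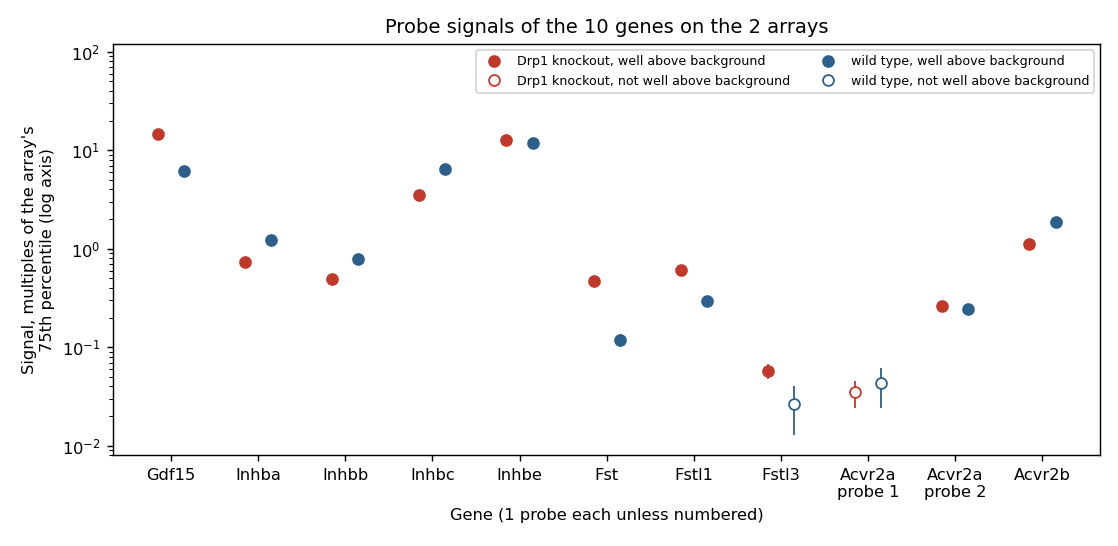
Signal of each of the 11 probes on the Drp1 knockout array (red, left of each pair) and the wild type array (blue, right), as multiples of the array's 75th percentile on a log axis. Bars show the scanner software's error for 1 spot, and open circles probes not well above background. Gdf15, Fst and Fstl1 sit higher in the knockout, while Inhba, Inhbb, Inhbc and Acvr2b sit lower under this scaling but not, beyond 1.5-fold, under E1A spike-in scaling.

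The activin beta subunits were not alike. Under percentile scaling, Inhba, Inhbb and Inhbc of the 4 were lower in the knockout by 1.58-fold to 1.84-fold, and Inhbe differed by less than the spot error. Inhba, the subunit of activin A, was at 0.726 times the 75th percentile in the knockout and 1.23 times in the wild type, a log2 difference of -0.76 (1.69-fold lower). Its probe lies on chromosome 13 at 16118634 to 16118693 on the plus strand. Inhbb, the subunit of activin B, was at 0.496 in the knockout and 0.786 in the wild type, a difference of -0.66 (1.58-fold lower), with its probe on chromosome 1 at 121312160 to 121312219 on the minus strand. The unscaled signals of these subunits were almost the same on the 2 arrays, at 524 ± 53 in the knockout and 565 ± 57 in the wild type for Inhba and at 358 ± 36 and 362 ± 37 for Inhbb. The size of these differences therefore depends on the scaling. The median of all genes was -0.11, and 92.2% of the measured genes had a higher difference than Inhba and 89.5% a higher one than Inhbb.

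Inhbc and Inhbe are neighbours in the genome. Under percentile scaling Inhbc was lower while Inhbe differed by less than the spot error, which it exceeded under some alternatives. Inhbc, whose product forms activin C, gave 2536 ± 254 units in the knockout and 2976 ± 298 in the wild type. Scaled, it was at 3.51 times the 75th percentile in the knockout and 6.46 times in the wild type. This was 1.84-fold lower in the knockout (log2 difference -0.88), and 94.7% of the measured genes had a higher difference. Inhbe, whose product forms activin E, gave 9177 ± 918 units in the knockout and 5418 ± 542 in the wild type. Scaled, it was at 12.7 in the knockout and 11.8 in the wild type, 1.08-fold higher (log2 difference 0.11). The Inhbe probe, on chromosome 10 at 126786719 to 126786778, and the Inhbc probe, at 126793865 to 126793924, both on the minus strand (mm9), lie 7.15 kb apart. Inhbe minus Inhbc was 0.99 log2, against a spot error of 0.20 for such a difference of differences, from probes with several spots. The scanner software's error was 0.20 for the log2 difference of each of the 2 genes alone, so that of the contrast is larger. Inhbe minus Inhbc stayed between 0.94 and 1.07 over the main setting and 9 alternatives, but several of these could not move it. A constant scaling cancels in it, and the filter and brightest-probe settings leave genes with a single probe as they were. Only the quantile, loess and normexp settings and the deposited values could change it.

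The same stretch of chromosome 10 holds Ddit3, which encodes Chop, a stress transcription factor downstream of Atf4. The Ddit3 probe lies 54.2 kb from the Inhbe probe, and Ddit3 was at 5.20 times the 75th percentile in the knockout and 1.22 times in the wild type (log2 difference 2.09, 4.26-fold higher). Between Ddit3 and Inhbe, Mars1, the cytosolic methionyl-tRNA synthetase, differed by 0.13 and Arhgap9 by 0.29. Neither probe of Gli1, a Hedgehog transcription factor, was well above background on either array. Of the 9 genes measured within 100 kb of Inhbe, Ddit3 alone was 1.5-fold or more higher, and 2 were lower by as much, Inhbc and BB759059 (1.69-fold). Over all measured genes, 8.42% were higher and 13.4% lower by as much.

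**Figure D2:**
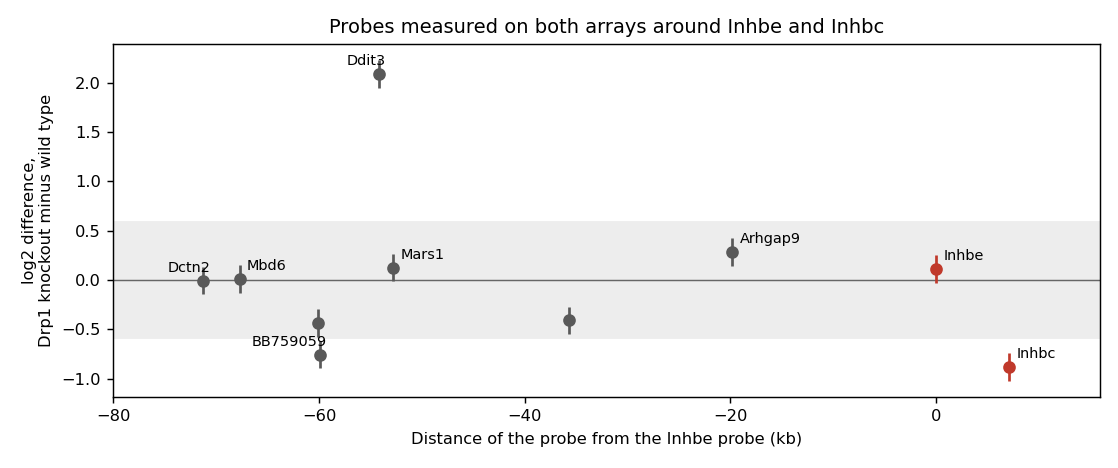
Log2 difference, knockout minus wild type, of the probes measured on both arrays near Inhbe, against distance from the Inhbe probe in kb. Red points are Inhbe and Inhbc, bars are plus and minus the spot error of 0.14, the grey band is under 1.5-fold, and 2 unnamed probes carry no label. Ddit3 stands at 2.09, Inhbe at 0.11 and Inhbc at -0.88 (-0.17 under E1A scaling).

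Since Inhbe and Gdf15 are liver hormones known to respond to Atf4 and Chop, their promoters were searched for TGATGNAA, the letters of the C/EBP-ATF response element (CARE) that Atf4 binds with C/EBP proteins. Both are given here in RefSeq sequence of GRCm38.p6, as the 250 bases before the start, 5′ to 3′ on the gene's strand, with capitals for a match on either strand.
Inhbe, chr10:127351849-127352098, minus strand: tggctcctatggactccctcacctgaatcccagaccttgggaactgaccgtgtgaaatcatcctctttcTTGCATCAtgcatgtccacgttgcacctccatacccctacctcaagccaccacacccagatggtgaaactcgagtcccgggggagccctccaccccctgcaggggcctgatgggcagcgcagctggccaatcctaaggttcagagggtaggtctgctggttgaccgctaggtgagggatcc
Gdf15, chr8:70632457-70632706, minus strand, the farther upstream of its 2 listed starts: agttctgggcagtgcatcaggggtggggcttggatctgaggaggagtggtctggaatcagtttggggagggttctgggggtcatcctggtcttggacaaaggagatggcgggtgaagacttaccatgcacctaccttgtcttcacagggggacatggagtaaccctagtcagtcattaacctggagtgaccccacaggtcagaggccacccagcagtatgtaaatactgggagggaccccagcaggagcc
The table held 10 windows for 9 of the 10 genes, all but Fst. The Inhbe window had the only match, TTGCATCA on the other strand, 181 bases before the start, and 3.45% of all 32851 windows held the motif. The cAMP response element TGACGTCA (1.55% of all windows), the FOXO motif GTAAACA (3.17%) and the palindromic Smad motif GTCTAGAC (0.167%) had no match in any member window on either strand. A match is a string of letters and not a bound site, and no match says only that these letters are not in the window.

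By their probe values, Gdf15 and Inhbe differed from each other on these arrays, and whether the motif match bears on this was not tested. Gdf15 minus Inhbe was 1.12 log2, with values from 1.09 to 1.12 over the main setting and 9 alternatives. Gdf15 minus Inhbc was 2.12, with values from 2.03 to 2.18. Here too only the quantile, loess and normexp settings and the deposited values could move the contrasts.

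Among the follistatin genes, Fst and Fstl1 were higher in the knockout and Fstl3 was well above background there alone. Fst gave 336 ± 34 intensity units on the knockout array and 54.2 ± 8.2 on the wild type array. Scaled, it was at 0.466 times the 75th percentile in the knockout and 0.118 times in the wild type, 3.96-fold higher (log2 difference 1.99), and 0.461% of the measured genes had a higher difference. On the wild type array Fst was dim, above only 9.98% of the measured probes, against 44.2% in the knockout. With normexp background correction, which adds an offset of 50 to every signal, Fst was 2.14-fold higher. Its probe lies on chromosome 13 at 115243565 to 115243624 on the minus strand (mm9).

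Fstl1 gave 441 ± 45 units in the knockout and 137 ± 16 in the wild type. Scaled, it was at 0.612 times the 75th percentile in the knockout and 0.298 times in the wild type, 2.05-fold higher (log2 difference 1.04), with its probe on chromosome 16 at 37836492 to 37836551 on the plus strand. Fstl3 gave 41.6 ± 6.9 units in the knockout and 12.3 ± 6.4 in the wild type, where the error is a large part of the signal. Its knockout level, 0.0577 times the 75th percentile, lies below the lowest wild type level that counts as well above background, 0.0593. No fold is given for it. The probe lies on chromosome 10 at 79244916 to 79244975 on the plus strand.

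The difference of Fst, the antagonist, exceeded those of the activin subunits it binds. Fst minus Inhba was 2.74 log2 and Fst minus Inhbb 2.65, against a spot error of 0.20 from probes with several spots. For these single spots, the scanner software's error of the log2 difference was 0.26 for Fst alone. It was 0.21 for Inhba and 0.21 for Inhbb, so the error of each contrast is larger than the spot error. With normexp background correction these contrasts were 1.77 and 1.67. The levels of different probes are not comparable, so no ratio of follistatin to activin is given.

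Fstl1 is a gene of mesenchymal cells. Among 13 stellate cell and fibroblast markers 8 had a 1.5-fold or greater excess in the knockout, 1 was lower, and their median was 0.81. Over all measured genes, 8.42% were higher and 13.4% lower by as much, and the median was -0.11. The summed level of the 13 markers was 71.5 times the 75th percentile in the knockout and 48.7 times in the wild type. Most of it came from the proteoglycan Dcn, at 63.0 in the knockout and 44.6 in the wild type (1.41-fold higher). All 13 were measured on both arrays. Col1a1, a fibrillar collagen chain, was 3.19-fold higher, the PDGF receptor Pdgfra 3.06-fold and the matrix proteoglycan Lum 2.79-fold. In bulk liver RNA, more or fewer cells of a type and more or less RNA per cell cannot be told apart. The part of these cells in the Fst and Fstl1 values was not tested.

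Fst, Fstl1, Fstl3 and Inhbb are also expressed in muscle or fat. Of 10 skeletal muscle markers, 8 passed the background test in the wild type alone and 2 on neither array, with a summed level of 0.147 in the knockout and 8.11 in the wild type. Of all 39429 probes, 19923 passed it on the wild type array, and 19470 passed it on both arrays. In the knockout, troponin C2 (Tnnc2) was lower by a factor of at least 88.1 and the sarcomere protein Tcap by at least 36.5. Among 7 adipocyte markers the summed level was 3.13 in the knockout and 11.0 in the wild type. The complement protease Cfd was 33.6-fold lower and the lipid droplet protein Cidea 8.67-fold lower in the knockout, Fabp4 differed by 0.01, and the defining markers Adipoq, Lep, Plin1 and Retn were not well above background on either array. The part of muscle and fat RNA in the values of the follistatin genes, Inhba and Inhbb was not tested.

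The type II receptors also differed from each other. Acvr2b gave 804 ± 81 units in the knockout and 860 ± 86 in the wild type. Scaled, it was at 1.11 times the 75th percentile in the knockout and 1.87 times in the wild type, a log2 difference of -0.74 (1.68-fold lower), with its probe on chromosome 9 at 119342560 to 119342619 on the plus strand. Acvr2a had 2 probes on chromosome 2, and only the downstream one, at 48758429 to 48758488, was well above background. It was at 0.263 in the knockout and 0.246 in the wild type, a difference of 0.10 (1.07-fold higher), less than the spot error. Acvr2a minus Acvr2b was 0.84 log2, with values from 0.58 to 0.84 over the main setting and 8 alternatives. Of these, median centring, E1A scaling and the brightest-probe setting could not move it. The other probe, at 48757324 to 48757383, gave 25.4 ± 7.7 units in the knockout and 20.0 ± 8.7 in the wild type. Averaging in this dim probe turned the Acvr2a difference to -0.10, and normexp correction turned it to -0.04. A further probe, for a transcript that RefSeq lists as a synonym of Acvr2b, was named 4930516B21Rik in the files and was not well above background on either array.

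Counted together, 9 of the 10 genes were measured on both arrays. Of these, 3 (Gdf15, Fst and Fstl1) reached 2-fold higher in the knockout, beside 2.91% of all 15385 genes, and 0 were at least 2-fold lower, beside 3.64%. At 1.5-fold the same 3 were higher, beside 8.42% of all genes, and 4 (Inhba, Inhbb, Inhbc and Acvr2b) were lower, beside 13.4%. The median of the 9 was 0.10, beside -0.11 over all genes, and the values ran from -0.88 to 1.99. Only Inhbe and Acvr2a lay within 1.5-fold. With 9 genes picked with earlier results known, these counts are a description of the 2 arrays.

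**Figure D3:**
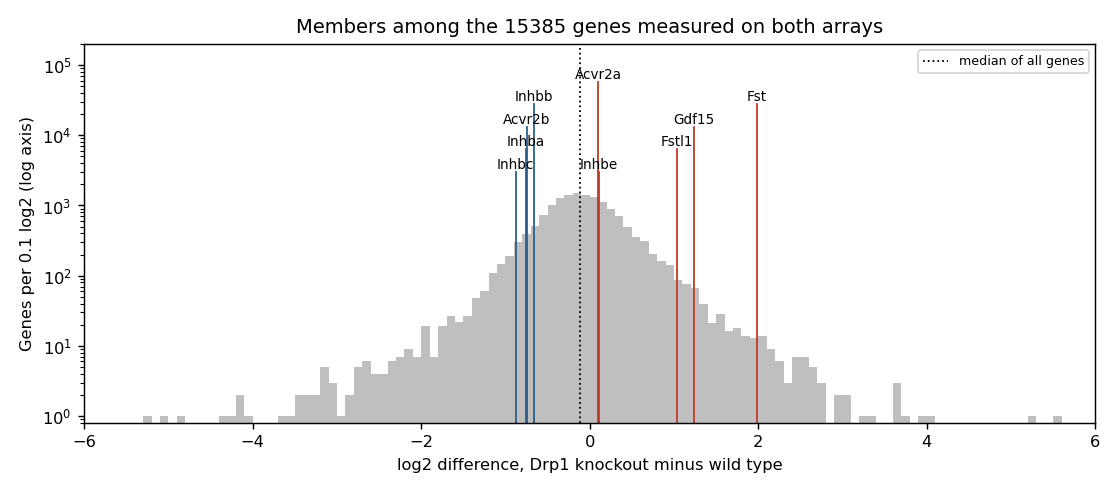
Histogram of the log2 difference, knockout minus wild type, of the 15385 genes measured on both arrays (grey, log axis), with a line for each of the 9 measured members (red above 0, blue below 0). The dotted line is the median of all genes at -0.11. Fst, Gdf15 and Fstl1 lie in the upper tail, and 4 members lie between -0.88 and -0.66 under this scaling (-0.17 to 0.05 under E1A scaling).

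That Inhba, Inhbb, Inhbc and Acvr2b were lower by 1.5-fold or more rested on the scaling, since their unscaled signals in the knockout were 0.852 to 0.989 times those in the wild type. The 8 E1A spike-in probes, RNA added in known amounts, had a difference of -0.71 after percentile scaling. With both arrays scaled to them instead, 5 members were at least 1.5-fold higher and 0 lower. Inhba was then at -0.04, Inhbb at 0.05, Inhbc at -0.17 and Acvr2b at -0.03, while Inhbe was at 0.83, Acvr2a at 0.81, Fstl1 at 1.75, Gdf15 at 1.95 and Fst at 2.70. This scaling moved the median of all genes by 0.71, to 0.60, so that relative to the other genes the members stood where they had been. Under normexp correction Inhbb was at -0.57, just under 1.5-fold lower.

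**Figure D4:**
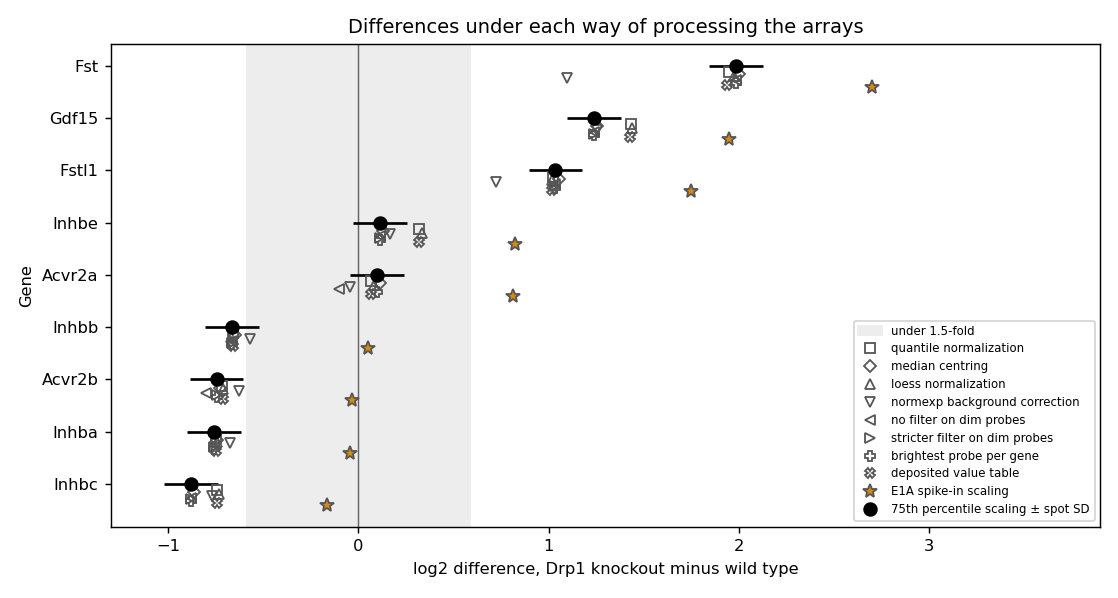
Log2 difference, knockout minus wild type, of the 9 measured members under percentile scaling (black, with the spot error of 0.14) and under 9 alternatives (open symbols and stars). The grey band is under 1.5-fold. E1A scaling (stars) lies 0.71 to the right of the black points, and normexp correction (triangles pointing down) brings Fst to 1.097.

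The rest of the pathway was read from lists of genes grouped by known role, described by their counts at 1.5-fold beside the 8.42% of all genes higher and 13.4% lower. Under E1A scaling every value in them is 0.71 higher, which turns the sign of those between -0.71 and 0. Among other activin and BMP type ligands, 13 of 23 were measured on both arrays, 4 were higher and 1 lower, and the median was 0.09. Gdf10 was 3.93-fold higher in the knockout, Gdf9, known from the oocyte, 3.02-fold and Bmp6, the iron-regulated ligand that drives hepcidin, 2.35-fold. Inha, whose product turns activin subunits into inhibins, and the muscle growth inhibitor Mstn were not well above background on either array.

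Of 15 other receptors and co-receptors, 11 were measured, 1 was higher and 2 lower, and the median was 0.04. The type I receptor Acvr1b, which pairs with the type II receptors for activins A and B, differed by -0.03, and Acvr1c was not well above background on either array. Hjv, the BMP co-receptor of the hepcidin pathway, was 2.04-fold higher, while Tdgf1, a co-receptor for Nodal, was 1.59-fold and Rgma 1.55-fold lower. Igsf1, well above background in the knockout alone, was at least 1.46-fold higher.

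Of 14 Smads and Smad adaptors, 13 were measured, 4 were higher and 1 lower, and the median was 0.21. The activin-responsive Smad2 and Smad3 differed by 0.46 and 0.21. Smad9 was 2.38-fold and Smad1 2.13-fold higher, both transducers of BMP signals, while of the inhibitory Smads, Smad6 was 2.81-fold lower and Smad7 1.70-fold higher. Of 17 genes known as Smad targets, 15 were measured, 8 were higher and 2 lower, and the median was 0.61. Id1, a BMP target, was at 2.86 times the 75th percentile in the knockout and 0.875 times in the wild type (3.27-fold higher), and the matrix genes Col1a1 and Ccn2 were 3.19-fold and 2.61-fold higher. The 2 lower genes were Fn1 (1.71-fold) and Id2 (1.64-fold), and Id3 differed by 0.09, so the Id genes were not alike. Id4 was at least 1.42-fold and Cdkn2b at least 1.09-fold higher. Col1a1 belongs to the stellate marker list as well, so the Smad target count and the marker count share it.

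The 17 other extracellular antagonists showed no member at least 1.5-fold higher among the 7 measured. Noggin (Nog), which binds BMPs, was 2.17-fold lower, Chrd differed by -0.48, and the median was -0.26. Bmper was at least 1.23-fold higher by its bound. Among genes of Gdf15 reception and prohormone processing, Gfral and Ret were not well above background on either array. Of the 7 measured in that list of 10, 0 were higher and 1 lower, and the median was -0.34. Tll1 was 2.00-fold lower, Bmp1 differed by -0.58, and Furin, a convertase that cleaves TGF-beta family precursors, differed by -0.45.

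Of 16 transcription factors reported to act on Gdf15, 15 were measured, 6 were higher and 1 lower, and the median was 0.19. Atf3 was at 8.36 times the 75th percentile in the knockout and 0.175 times in the wild type (47.8-fold higher), the growth and stress factor Egr1 was 5.85-fold and Ddit3 4.26-fold higher. Another 8 of the 15, such as Cebpb at -0.05, Nfe2l2 at 0.19 and Trp53 at 0.22, lay within 1.5-fold.

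Set beside other hormones secreted by the liver, the members lay on both sides of 0 as that list did. Of 22, 21 were measured, 6 were higher and 4 lower, and the median was -0.31. Igfbp1, a binding protein of the IGFs, was 12.8-fold higher in the knockout, Fgf21, the hormone named in the series title, was at 20.2 times the 75th percentile in the knockout and 3.37 times in the wild type (5.98-fold higher), and Enho was 2.21-fold lower. Epo, well above background in the knockout alone, was at least 2.55-fold higher.

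**Figure D5:**
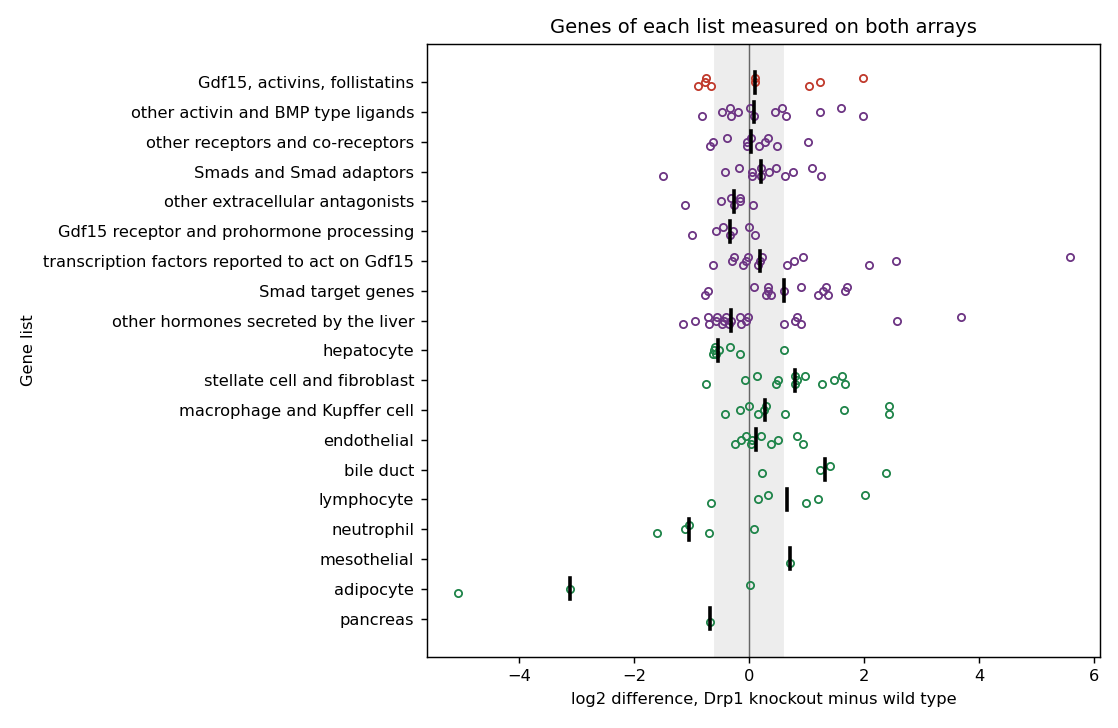
Log2 difference, knockout minus wild type, of the measured genes of each list: the members (red), pathway lists (purple) and cell type markers (green), with the list median as a black bar and the grey band under 1.5-fold. Skeletal muscle markers have no gene measured on both arrays and no row. The members spread from -0.88 to 1.99, and the stellate list has its median at 0.81.

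Inhbc and Inhbe, both expressed mainly in the liver, had log2 differences of -0.88 and 0.11. Of 8 hepatocyte markers, 3 were at least 1.5-fold lower and 1 higher under percentile scaling, beside 13.4% of all genes lower and 8.42% higher. The same shares stand beside the counts of the cell types below. The hepatocyte markers had a median of -0.54 and a summed level of 1826 in the knockout and 2635 in the wild type. The carrier Ttr was 1.55-fold and the protease inhibitor Serpina1a 1.53-fold lower, and Cps1, of the urea cycle, 1.52-fold higher. The part of hepatocytes in the Inhbc and Inhbe values was not tested. Nor was the part of the following cell types in any member's value. Of 10 macrophage and Kupffer cell markers, 4 were higher and 0 lower, with Trem2 and Gpnmb 5.38-fold and Marco 3.14-fold higher. Of 10 endothelial markers, 2 were higher and 0 lower, with Lyve1 at 0.93, Pecam1 at 0.84 and Emcn at 0.50. The median of this list was 0.13, and its summed level was 41.4 in the knockout and 43.8 in the wild type. Of 7 bile duct markers, 4 were measured and 3 were higher, with Anxa13 5.21-fold, Spp1 2.64-fold and Sox9 2.37-fold higher, while Cftr was at least 2.21-fold lower. Of 10 lymphocyte markers, 6 were measured, 3 were higher and 1 lower, with Ccl5 4.06-fold, Jchain 2.29-fold and Cd3d 1.98-fold higher. Cd3g was at least 2.41-fold and Ms4a1 at least 1.29-fold higher, while Cd3e was 1.59-fold lower, so the Cd3 genes were not alike. All 5 neutrophil markers were measured and 4 were lower, with Retnlg 3.02-fold, S100a9 2.16-fold and S100a8 2.06-fold lower. The mesothelial gene Msln was 1.64-fold higher, Wt1 at least 1.98-fold and Upk3b at least 1.18-fold, and of the pancreas genes Ins2 was 1.60-fold lower and Cela2a at least 4.91-fold lower in the knockout.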

How the data were processed

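Liver RNA of 1 Drp1 knockout and 1 wild type mouse was labelled with Cy3 and hybridised to Agilent mouse arrays, per the labels' protocols. The deposited scanner files give spot intensities: the processed signal is background-subtracted and spatially detrended, per the file headers, which name Feature Extraction 10.7.1.1, while the submitters' processing notes name 9.5.1.1. The value table deposited by the authors holds intensities with nearly equal sorted values in both columns (greatest gap 0.0417%), as quantile normalization gives. Its medians were 45.9 in each, and its rank correlation with the scanner values was 0.9999 or more on each array, so its direction is known. It served as an alternative.

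Control spots (1377 of 44397) and outlier spots (190 on the knockout and 183 on the wild type array) were left out, and 0 were saturated. Signals were divided by the array's 75th percentile and log2-transformed, and spots of a probe were averaged. A probe is measured where at least 50% of its spots are well above background, and a gene is the mean of its probes measured on both arrays. A probe measured on 1 array gives "at least N-fold" against the higher of its dim value and the dim array's lowest value well above background. Spot error was pooled over 241 probes with several spots. Probes were named by accession (26761) or symbol (4453) with RefSeq genes of GRCm38.p6, and 8215 kept the file's name. Probe positions are in mm9. The gene step, tested on simulated data of 15385 genes for this comparison, recovered all 200 changed genes and called 0 unchanged genes. This checks the calculation and not the accuracy of calls made from 1 array per group.

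Both arrays lay on 1 slide. The number of arrays limits the precision, and 1 array per group allows no test. Members, lists, named genes, motifs and settings were chosen with earlier results of these data known. Every member is named, with Dnm1l and Fgf21, and in each list the 3 measured genes with the greatest difference and up to 2 bounds above 1, except an item that is not reported here. Alb, Inha, Mstn, Fabp4, Acvr1b, Acvr1c, Smad2, Smad3, Smad7, Fn1, Id2, Id3, Dcn, Cd3e, Gfral, Ret, Cebpb, Nfe2l2, Trp53, the fat markers below background and the neighbouring genes were named in addition. Analyses used Python 3.11.15, statsmodels 0.14.6 (loess) and limma 3.58.1 (normexp, offset 50). The alternatives are given in the closing part, and loess used a span of 0.3.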

Additional observations from a re-analysis of the deposited data

How the results depend on the processing

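Gdf15, Fst and Fstl1 exceeded 1.5-fold in the knockout under each alternative that measured them, with Gdf15 from 1.24 to 1.44, Fst from 1.097 to 2.00 and Fstl1 from 0.72 to 1.05, E1A scaling apart. Inhbe ran from 0.11 to 0.33, E1A scaling apart. It exceeded the spot error of 0.14 under quantile, loess and normexp and in the deposited values. The stricter filter on dim probes left out Fst and Acvr2a, so that 7 members remained. Inhba, Inhbc and Acvr2b were at least 1.5-fold lower under the 8 alternatives other than E1A scaling, and Inhbb under 7 of them. Not all alternatives are separate checks. For a gene with a single probe, the filter and brightest-probe settings can only keep or drop the main value. The deposited values nearly repeat quantile normalization. Scaling to E1A spike-in spots, a choice known from earlier work on these data, turned Inhbb to 0.0497. It gave 5 members at least 1.5-fold higher and 0 lower, a median of 0.81, and over all genes 7966 higher and 245 lower at 1.5-fold and 2919 and 118 at 2-fold, with 96.1% of the 2-fold genes higher against 44.4% in the main setting. The median of the members was -0.0444 under normexp correction and -0.66 under the stricter filter, which keeps fewer genes. Over all genes, the numbers at least 1.5-fold higher and lower were 1296 and 2060 in the main setting, 658 higher with normexp (1465 lower), 655 and 1269 with the stricter filter and 3164 and 11307 without a filter. At 2-fold they were 447 and 560 in the main setting, 211 and 301 with normexp, 210 and 300 with the stricter filter and 1574 and 1766 without a filter. Loess normalization gave 502 and 408, with 55.2% higher. The median of all genes moved by 0.11 under loess, by -0.20 without the filter and by 0.71 under E1A scaling. For changes other than those set by fewer genes or by the scaling constant, the cause was not tested. Signals close to background limit Fstl3 and the dim Acvr2a probe. No paired analysis was possible because each group held 1 array. For the same reason no array could be left out.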
